A study of Mus musculus with 6 samples.

Results

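Aminoacyl-tRNA synthetases were compared between untreated B lymphocytes and B lymphocytes given anti-IgM. The set holds 36 genes fixed by name, 20 for cytosolic enzymes and 16 for mitochondrial ones, whose symbols end in 2. A probe was present for 35 of the 36, out of 19057 genes with a probe of a single symbol, and each gene was read by its brightest probe, the one with the highest mean log2 intensity over the arrays. Dars, for aspartate, was not analysed here. B cells were purified from the spleens of inbred C57BL/6 mice that were 8 weeks old. The 3 samples of the first group were labelled untreated. The 3 of the second had been incubated for 3 h with 2.5 µg/ml of goat anti-mouse IgM fragments, an antibody that ties B cell antigen receptors together and so activates them. Interleukin 4 (5 ng/ml) and CD40 ligand (200 ng/ml) are named in the protocols too, and it is not stated which samples had them. If only the anti-IgM samples had them, their effects and those of anti-IgM cannot be told apart.

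Each synthetase joins an amino acid to the tRNAs that carry its codons, and the charged tRNA then enters the ribosome. Separate enzymes, encoded in the nucleus, serve the cytosol and the mitochondrial matrix for most amino acids, while Gars and Kars each encode both forms and Eprs joins the enzymes for glutamate and proline in a single protein. Several cytosolic enzymes sit in the multisynthetase complex, held together by the scaffold proteins encoded by Aimp1, Aimp2 and Eef1e1. Lymphocytes that leave rest enlarge and make more protein, and the stress-responsive factor ATF4 and the growth factor MYC are known to act on promoters of several synthetase genes.

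RNA was read on 6 Illumina bead arrays as normalized intensity per probe. A gene was tested when a probe exceeded the median of its array on 3 or more of the 6 arrays, which held for 33 of the 35 members and 11855 genes in all. A gene is called when its adjusted p is under 0.05 (limma, Benjamini-Hochberg over all genes tested). Changes are log2 differences, anti-IgM minus untreated, ± SE, with n = 3 in each group. Background was not subtracted to 0, so changes of dim genes are compressed, and fewer transcripts per cell cannot be told apart from fewer cells that carry them. In both groups the array of replicate 1 differed from the rest. The female transcript Xist read 52.6 there on both arrays and between 791 and 2031 on the others, while the Y-linked Eif2s3y read 516 and 1043 there and 48.6 to 56.4 on the others. Where a call changed without these 2 arrays, or a named value moved by over 1.5 times, both values are given. B cell markers were present in every sample, and all 5 measured (Cd79b, Ms4a1, Cd22, Blk and Fcer2a) fell with anti-IgM (−0.67 to −2.95), their summed intensity ranging from 40944 to 49190 in untreated and from 10551 to 13100 in anti-IgM samples.

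Cytosolic synthetase transcripts were mostly higher with anti-IgM. Of the 19 cytosolic genes tested, 15 rose, 12 of them at least 2-fold, Vars and Qars fell, and Farsa and Hars were not called. Without both replicate 1 arrays, 13 rose and 10 reached 2-fold. The median change was 1.22, beside 0.02 over all genes tested. Among all genes tested 47.1% were called, 23.2% higher and 23.9% lower, and 9.37% rose at least 2-fold. The 2 groups did not overlap in 18 of the 19 genes, Hars being the exception, where 54.8% of all genes tested had groups without overlap. Within the 3 numbered pairs of samples, 17 of the 19 changes were positive each time, beside 35.0% of all genes tested, and 2 were negative each time. An earlier list of these enzymes had already shown the same direction in these arrays, so the count is a description of the set and adds no independent evidence.

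**Figure D1:**
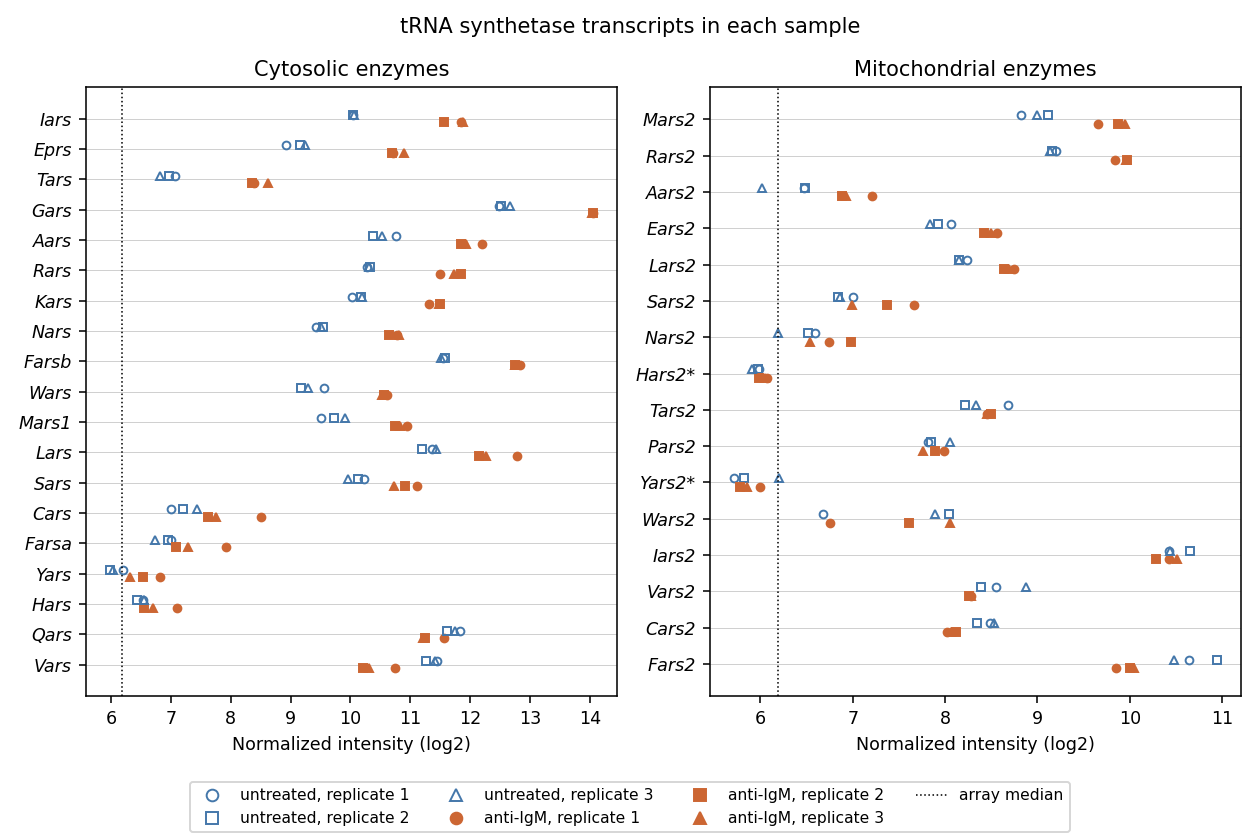
Normalized log2 intensity of each synthetase transcript in the 3 untreated (open blue) and 3 anti-IgM samples (filled orange), ordered by the change, with the array median dotted. Levels of different genes come from different probes and are not comparable, and genes with an asterisk were not tested. Iars, at the top left, sits between 10.04 and 10.06 in untreated and between 11.56 and 11.89 in anti-IgM samples.

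The isoleucine enzyme gene Iars rose most. Its log2 intensity was 10.05, 10.04 and 10.06 in untreated replicates 1 to 3 and 11.84, 11.56 and 11.89 in the anti-IgM samples. The untreated values lay close together and all anti-IgM values stood well above them, a 3.28-fold rise (1.71 ± 0.11; adjusted p = 5.07e-07, limma). Eprs, which charges tRNAs for glutamate and proline, read 8.92, 9.16 and 9.24 untreated and 10.71, 10.69 and 10.90 with anti-IgM. This was a 3.17-fold rise (1.66 ± 0.12; adjusted p = 1.35e-06), with no overlap. Tars, for threonine, read 7.07, 6.97 and 6.82 untreated and 8.39, 8.36 and 8.63 with anti-IgM, 2.84-fold higher (1.51 ± 0.15). Gars, the glycine enzyme of both compartments, was bright in all samples. It read 12.49, 12.52 and 12.67 untreated and 14.05, 14.05 and 14.04 with anti-IgM, and rose 2.81-fold (1.49 ± 0.08; adjusted p = 2.48e-07). Aars, for alanine, read 10.76, 10.37 and 10.53 untreated and 12.21, 11.85 and 11.92 with anti-IgM, 2.71-fold higher (1.44 ± 0.13). In Aars, replicate 1 was the highest sample of each group, and the gap between groups was far wider than the spread within them.

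Promoter sequences of 27 members were at hand in RefSeq's table (GRCm38.p6), and the 250 bases before each listed start were searched on both strands for the E-box CACGTG, which MYC and related factors bind, and for TGATGNAA, the core of the element through which ATF4 acts. The E-box was found for Aars, Farsb and Iars, and the ATF4 core for Aars, Gars and Tars. Of the 10 cytosolic genes with a promoter at hand that rose, 3 held the E-box and 3 the ATF4 core, against 6.02% and 3.45% of all 32851 promoters in the table. Neither was found for any of the 14 mitochondrial members with a promoter, nor for the 3 members there that fell. At these low shares over all promoters, finding none among 14 or 3 is not unusual, and Cars2 and Fars2 are in both of these sets. The 3 of 10 is also a small count, in genes grouped by their rise. It counts genes, where the shares count promoters, and the sets were not compared by a test. The 5 promoters with a match are shown, because they belong to genes that rose together. They run 5′ to 3′ on the gene's strand, and capitals mark the matches.
Aars, chr8:111033592-111033841, plus strand: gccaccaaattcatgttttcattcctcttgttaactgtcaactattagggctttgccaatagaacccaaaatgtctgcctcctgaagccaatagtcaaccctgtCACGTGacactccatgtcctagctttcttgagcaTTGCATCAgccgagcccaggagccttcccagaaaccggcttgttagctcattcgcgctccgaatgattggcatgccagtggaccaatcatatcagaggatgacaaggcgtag
Gars, chr6:55037751-55038000, plus strand: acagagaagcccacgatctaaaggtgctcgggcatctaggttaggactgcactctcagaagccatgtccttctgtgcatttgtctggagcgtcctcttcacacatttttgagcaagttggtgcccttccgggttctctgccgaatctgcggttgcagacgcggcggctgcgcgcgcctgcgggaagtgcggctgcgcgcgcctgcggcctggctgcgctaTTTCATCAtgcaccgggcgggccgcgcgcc
Tars, chr15:11399659-11399908, minus strand: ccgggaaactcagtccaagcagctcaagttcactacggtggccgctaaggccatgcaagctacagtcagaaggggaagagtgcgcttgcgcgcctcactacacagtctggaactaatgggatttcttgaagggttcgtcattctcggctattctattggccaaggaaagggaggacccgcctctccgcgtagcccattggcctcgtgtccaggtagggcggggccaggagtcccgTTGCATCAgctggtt
Iars, chr13:49681880-49682129, plus strand: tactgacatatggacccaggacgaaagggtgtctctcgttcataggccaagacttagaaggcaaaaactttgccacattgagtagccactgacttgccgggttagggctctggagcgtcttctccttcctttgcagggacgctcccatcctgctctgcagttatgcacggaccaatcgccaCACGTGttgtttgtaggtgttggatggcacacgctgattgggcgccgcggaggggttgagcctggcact
Farsb, chr1:78488898-78489147, minus strand: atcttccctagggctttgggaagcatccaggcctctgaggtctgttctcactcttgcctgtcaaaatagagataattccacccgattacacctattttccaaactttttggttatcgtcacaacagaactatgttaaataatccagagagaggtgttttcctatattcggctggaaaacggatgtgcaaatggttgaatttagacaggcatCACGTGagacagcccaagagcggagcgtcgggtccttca
The Aars promoter holds both, the E-box at positions −146 to −141 and the ATF4 core at −112 to −105 from the start. The core lies at −30 to −23 in Gars and at −15 to −8 in Tars. The E-box lies at −69 to −64 in Iars and at −39 to −34 in Farsb. These are matches of letters, and no binding was measured. The motifs do not overlap each other in these promoters.

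The remaining rises of at least 2-fold were those of Rars for arginine (1.39 ± 0.11), Kars for lysine (1.31 ± 0.10), Nars for asparagine (1.26 ± 0.10), Farsb (1.23 ± 0.08), Wars for tryptophan (1.22 ± 0.12), Mars1 for methionine (1.13 ± 0.12) and Lars for leucine (1.07 ± 0.15). In Lars the replicate 1 pair gave 1.42 and the other pairs 0.95 and 0.83, so the rise was larger in that pair. Without both replicate 1 arrays the changes of Lars and Mars1 were 0.89 and 0.97, both still called but under 2-fold. Kars gave nearly equal changes, at 1.29, 1.33 and 1.30 in the numbered pairs. Sars, for serine, rose less (0.81 ± 0.12), at 0.87, 0.79 and 0.78 in the pairs.

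Cars and Yars rose with less certainty. Cars, for cysteine, read 7.00, 7.19 and 7.43 untreated and 8.50, 7.61 and 7.76 with anti-IgM (0.75 ± 0.23; adjusted p = 0.022, limma). The numbered pairs gave 1.50, 0.42 and 0.33, so replicate 1 carried most of it. Without both replicate 1 arrays its change was 0.37 (adjusted p = 0.097). It also missed the threshold without untreated replicate 1 (0.054) or 2 (0.062) or without anti-IgM replicate 1 (0.057). Its other 2 probes were dim, above the array median in 0 of 3 untreated samples and in 3 of 3 with anti-IgM. They rose at least 1.92-fold and at least 1.29-fold, set against the array median where the probe's own value was lower. Both passed the filter only through the anti-IgM samples, so they add no independent support to the rise of Cars. Yars, for tyrosine, read 6.20, 5.98 and 6.03 untreated, where 1 of 3 samples was above the array median, and 6.82, 6.53 and 6.31 with anti-IgM (0.48 ± 0.15; adjusted p = 0.024). The adjusted p of Yars was 0.060 without both replicate 1 arrays. It was 0.088 and 0.072 without untreated replicate 2 or 3, and 0.084 and 0.055 without anti-IgM replicate 1 or 2.

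The phenylalanine enzyme is built from a pair of unlike subunits, and their genes were measured at different precision. Farsb, for the beta subunit, read 11.55, 11.57 and 11.51 untreated and 12.83, 12.75 and 12.74 with anti-IgM, a 2.35-fold rise. Farsa, for the alpha subunit, was dim, at 7.00, 6.96 and 6.73 untreated and 7.93, 7.08 and 7.29 with anti-IgM (0.54 ± 0.22; adjusted p = 0.065, limma). Its groups did not overlap, though 2 of its anti-IgM values lay near the untreated ones. Farsa was called with the replicate number as a block (adjusted p = 0.0075) and without anti-IgM replicate 2 (0.030). Its change was smaller without anti-IgM replicate 1 (0.29; adjusted p = 0.22) and without both replicate 1 arrays (0.34; adjusted p = 0.15). Hars, for histidine, read 6.53, 6.43 and 6.55 untreated and 7.10, 6.54 and 6.70 with anti-IgM (0.28 ± 0.16; adjusted p = 0.20), and its change was 0.13 without both replicate 1 arrays.

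Vars and Qars were the cytosolic genes that fell. Vars, for valine, read 11.44, 11.26 and 11.42 untreated and 10.74, 10.21 and 10.31 with anti-IgM, 1.94-fold lower (−0.96 ± 0.14; adjusted p = 0.000192, limma). All anti-IgM samples lay below all untreated ones, and all 3 tested probes of Vars were lower, at −0.96, −0.92 and −0.52. Qars, for glutamine, read 11.84, 11.61 and 11.76 untreated and 11.57, 11.24 and 11.22 with anti-IgM, a small fall (−0.39 ± 0.12; adjusted p = 0.017). The highest anti-IgM value lay just under the lowest untreated one. Qars missed the threshold without untreated replicate 3 (0.060) and without anti-IgM replicate 2 (0.075) or 3 (0.073). Its other probes gave −0.53 ± 0.09 and −0.32 ± 0.12, and the latter missed the threshold (adjusted p = 0.051 over all probes). Tested against a log2 change of 0.5 with limma's treat, Vars passed and Qars did not.

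**Figure D2:**
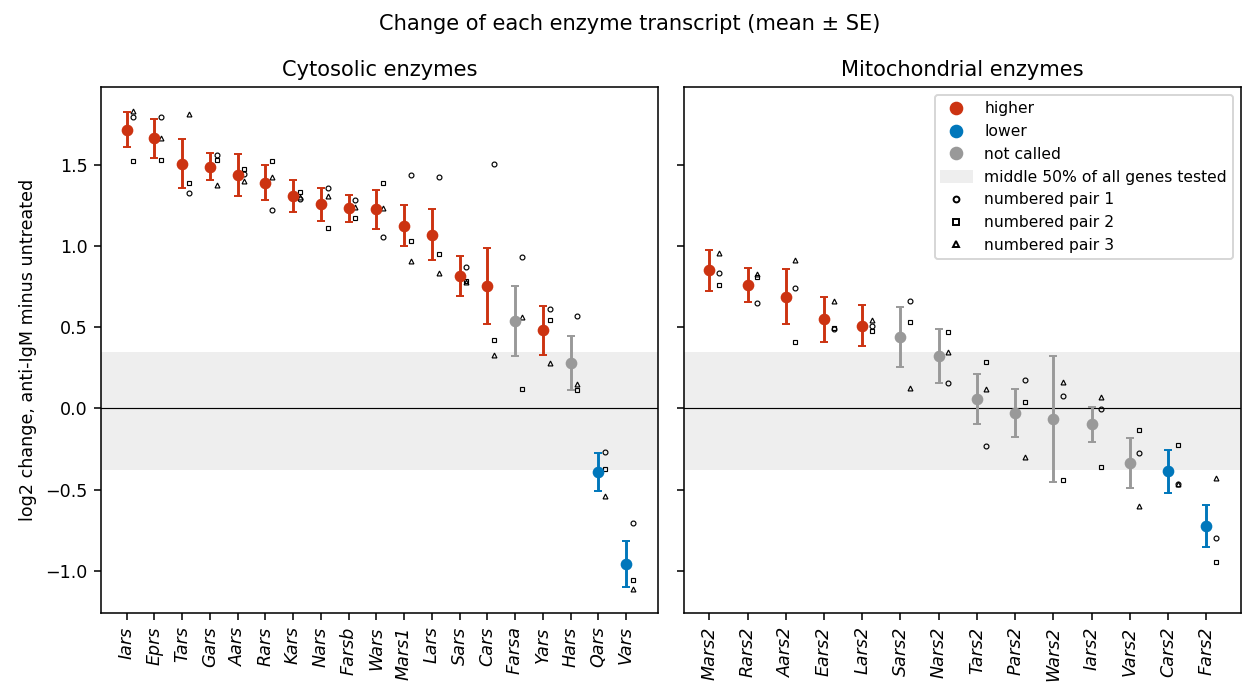
log2 change of each tested synthetase transcript with its SE from limma, coloured by call, beside the change within each numbered pair of samples (small open marks). The grey band is the middle 50% of all genes tested, from −0.37 to 0.34. Of the 19 cytosolic genes 16 lie above the band, and Qars and Vars lie below it.

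By place in the cell, 6 of the 7 tested members of the multisynthetase complex rose (Eprs, Iars, Kars, Lars, Mars1 and Rars) and Qars fell, with a median of 1.31. Among the other 12 cytosolic genes 9 rose, Vars fell and 2 were not called, with a median of 1.02. The 2 structural classes of synthetase, which bind ATP through unlike folds, had cytosolic medians of 1.07 over 9 class I genes and 1.26 over 9 class II genes, with Eprs in both classes and counted in neither. The difference between the members of such groups was not tested.

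The scaffold genes of the complex did not move as one. Eef1e1 read 9.05, 9.27 and 9.28 untreated and 11.72, 11.85 and 12.04 with anti-IgM, a 6.34-fold rise (2.66 ± 0.12; adjusted p = 5.48e-08, limma). Aimp2 read 9.05, 9.11 and 9.22 untreated and 11.37, 11.62 and 11.35 with anti-IgM, a 5.01-fold rise (2.32 ± 0.11). Both changes exceeded that of every synthetase member. Aimp1, whose product is also released as a cytokine, read 11.55, 11.79 and 11.51 untreated and 11.44, 11.57 and 11.72 with anti-IgM. Its groups overlapped (−0.05 ± 0.11; adjusted p = 0.78).

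Mitochondrial synthetase transcripts changed less. Of 16 members, 14 were tested, 5 rose, 2 fell and 7 were not called, so 7 of 14 were called, a share near the 47.1% of all genes tested. The median change was 0.19, and none of the 14 rose 2-fold. That median was 0.13 without anti-IgM replicate 2 and 0.30 without untreated replicate 1, and 0.071 with no filter on dim probes and 0.059 when only probes above the median on all 6 arrays were kept. The 2 groups did not overlap in 8 of the 14, again close to the 54.8% of all genes. Hars2 and Yars2, for histidine and tyrosine, stayed under the tested range, Hars2 between 5.91 and 6.08 and Yars2 between 5.71 and 6.20 over the 6 samples, with an array median of 6.19.

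Mars2, for methionine, rose most among them. It read 8.83, 9.11 and 8.99 untreated and 9.66, 9.87 and 9.95 with anti-IgM, 1.80-fold higher (0.85 ± 0.13; adjusted p = 0.000251, limma). Rars2, for arginine, read 9.20, 9.16 and 9.13 untreated and 9.84, 9.97 and 9.96 with anti-IgM, 1.69-fold higher (0.76 ± 0.11). In both genes the samples of a group lay close together and the groups were clearly apart. Aars2, for alanine, was dim, at 6.47, 6.48 and 6.01 untreated, with 2 of 3 samples above the array median, and 7.21, 6.89 and 6.93 with anti-IgM. It rose 1.61-fold (0.69 ± 0.17; adjusted p = 0.0065). Ears2, for glutamate, read 8.07, 7.92 and 7.83 untreated and 8.56, 8.42 and 8.49 with anti-IgM (0.55 ± 0.14; adjusted p = 0.0068). Lars2, for leucine, read 8.24, 8.16 and 8.15 untreated and 8.75, 8.63 and 8.69 with anti-IgM (0.51 ± 0.13; adjusted p = 0.0066). All 5 kept their call without each single sample and without both replicate 1 arrays.

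Fars2 and Cars2 fell. Fars2, for phenylalanine, read 10.64, 10.94 and 10.48 untreated and 9.85, 10.00 and 10.05 with anti-IgM, 1.65-fold lower (−0.72 ± 0.13; adjusted p = 0.000912, limma). Its untreated samples spread more widely than its anti-IgM samples, and the groups did not overlap. Cars2, for cysteine, read 8.49, 8.34 and 8.53 untreated and 8.02, 8.12 and 8.06 with anti-IgM (−0.39 ± 0.13; adjusted p = 0.035). The Cars2 call was lost without both replicate 1 arrays (adjusted p = 0.076) and, apart from untreated replicate 2, without any single sample. Those adjusted p-values were 0.076 and 0.11 without untreated replicate 1 or 3 and 0.077, 0.067 and 0.081 without anti-IgM replicate 1, 2 or 3. Its other tested probes gave −0.55 and −0.08 and were not called.

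Among the 7 mitochondrial genes that were not called, Sars2 changed by 0.44 ± 0.19 (adjusted p = 0.079) and Vars2, for valine, by −0.34 ± 0.15 (adjusted p = 0.10). Both passed with the replicate number as a block, at adjusted p-values of 0.021 and 0.034, and Sars2 also without anti-IgM replicate 3 (0.018). Sars2 changed by 0.28 (adjusted p = 0.26) without anti-IgM replicate 1, and Vars2 by −0.20 (adjusted p = 0.34) without untreated replicate 3. Vars2 read 8.55, 8.39 and 8.88 untreated and 8.28, 8.25 and 8.28 with anti-IgM, without overlap. Nars2, for asparagine, changed by 0.32 ± 0.17 (adjusted p = 0.14), and by 0.21 without untreated replicate 3 or anti-IgM replicate 2. Tars2, Pars2 and Iars2, for threonine, proline and isoleucine, changed by 0.06 ± 0.15, −0.03 ± 0.15 and −0.10 ± 0.11, with overlapping groups. On its brightest probe Wars2, for tryptophan, was low in both replicate 1 samples, at 6.68 and 6.75, and lay between 7.61 and 8.05 in the others. Its change was −0.07 ± 0.39. Its other 2 probes did not show this gap, and on the next brightest replicate 1 was the highest sample of each group, at 7.12 and 7.43.

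Partners for the same amino acid were set side by side in 15 pairs with both genes tested, counting Eprs once with Ears2 and once with Pars2 and Fars2 with each subunit gene. The cytosolic change was the larger in 14, and in 13 of these in all 3 numbered pairs of samples. In Iars and Iars2 the changes were 1.71 and −0.10, a gap of 1.81. In Farsb and Fars2 they were 1.23 and −0.72, so these genes for the cytosolic and the mitochondrial phenylalanine enzyme moved in opposite directions. Cars (0.75) and Cars2 (−0.39) also differed in direction, with less certainty. Without both replicate 1 arrays they changed by 0.37 and −0.34, and neither was called. Methionine was closest, with 1.13 for Mars1 and 0.85 for Mars2, and in the pair of replicate 3 samples Mars2 changed more. Valine was the exception, with −0.96 for Vars and −0.34 for Vars2. The gaps were not tested, and dim probes compress a change.

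**Figure D3:**
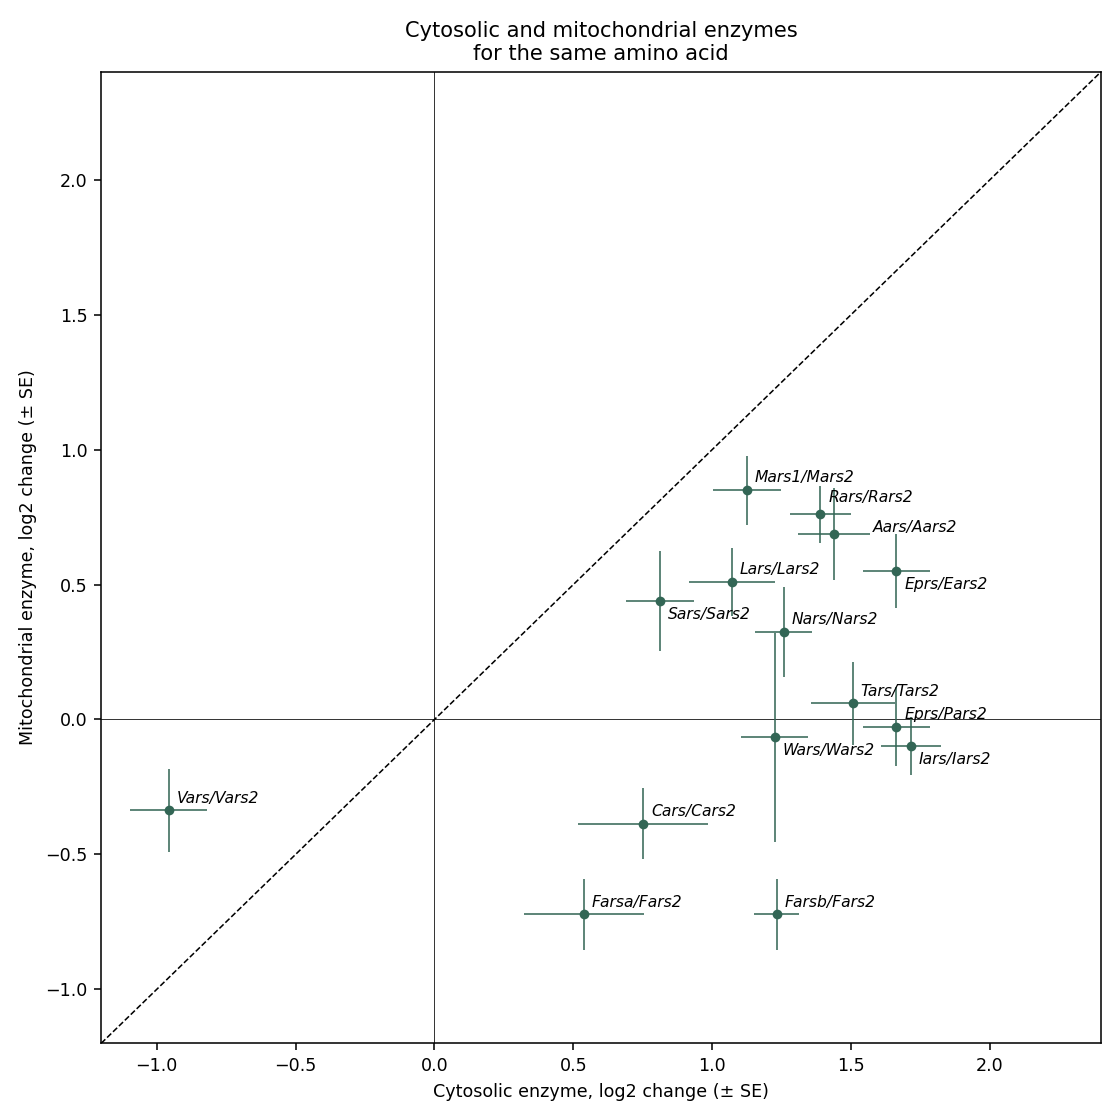
log2 change of the mitochondrial enzyme's transcript against that of the cytosolic enzyme for the same amino acid, with SEs from limma, in 15 pairs. The dashed line marks equal change, and 14 pairs lie to its right, with Vars and Vars2 alone to its left.

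Some members lie close together in the genome. In RefSeq's gene table Hars and Hars2 lie side by side with no gene between them. Hars was not called and Hars2 was too dim to test, so their changes cannot be compared. Iars2 and Eprs lie near each other on chromosome 1, with 3 genes between them, 1 of them protein-coding. They changed by −0.10 and 1.66.

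Where a gene had several tested probes, these did not contradict each other in direction of call. Of 21 members with at least 2 tested probes, 13 had all of them called the same way, 4 had some called and others not, 4 had none called, and 0 had calls in opposite directions. Cars is among the 13, though its 2 dimmer probes passed the filter only through the anti-IgM samples. All 4 probes of Wars rose, by 1.22, 1.62, 1.41 and 1.38, and the 3 of Eprs by 1.66, 1.57 and 1.83. In Iars the 2 bright probes gave 1.71 and 1.81 and a dim one 0.17, and in Tars the brighter probe gave 1.51 and the dimmer 0.34. Gars gave 1.49 and 0.84. The Iars2 probes differed in sign, at −0.10 ± 0.11 and 0.30 ± 0.11 (adjusted p = 0.55 and 0.056 over all probes). For Wars2, the brighter tested probe on its RefSeq transcript gave 0.36 ± 0.16 in place of −0.07, and was not called (adjusted p = 0.093). A dimmer probe on the same transcript gave −0.04 ± 0.13 (adjusted p = 0.86, limma).

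**Figure D4:**
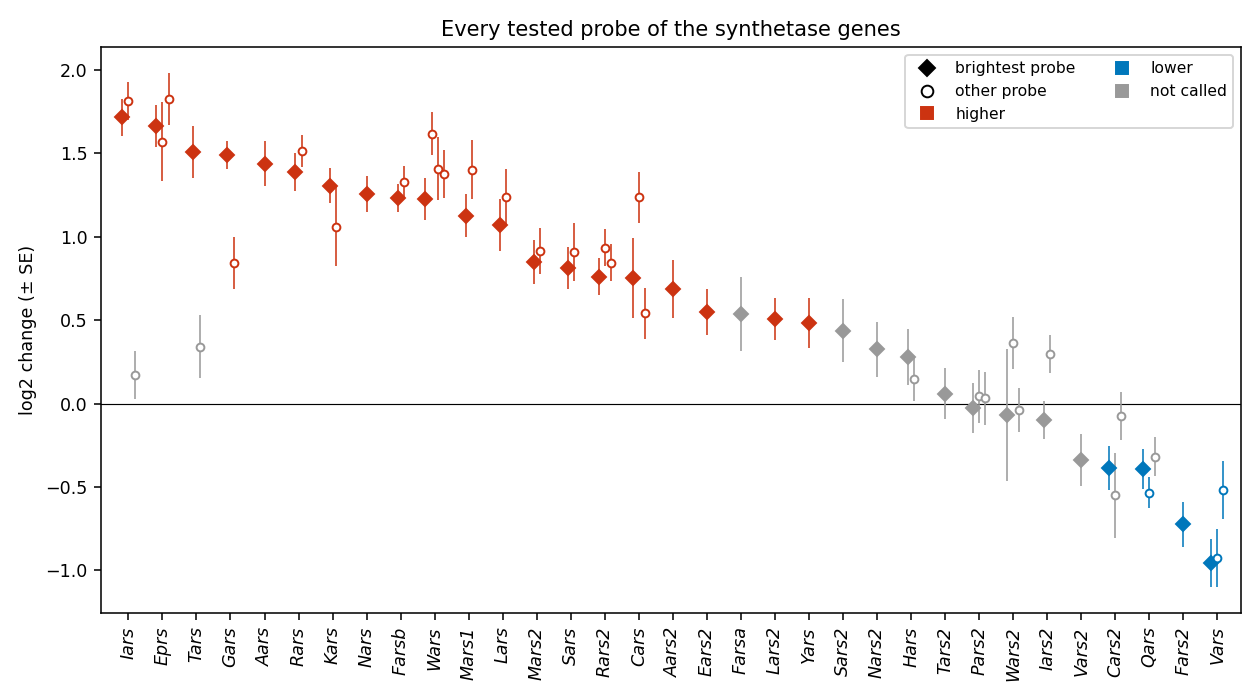
log2 change with its SE for every tested probe of the 33 genes, with the brightest probe of a gene as a filled diamond and other probes as open circles, coloured by call over all probes. The 4 probes of Wars and the 3 of Vars each lie on the same side of 0, and the second probes of Tars and Iars2 stand apart from the first.

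Genes around the charging step were read from lists chosen by role. Tarsl2, a further gene for a threonine enzyme, rose (0.48 ± 0.14; adjusted p = 0.017), and missed the threshold without both replicate 1 arrays (0.067), without untreated replicate 2 (0.059) and without anti-IgM replicate 1 (0.061). Of 8 editing and mitochondrial charging genes tested, 3 rose and 2 fell, with a median of −0.05, a share called not far from the 47.1% of all genes. Mtfmt, which formylates the initiator methionyl-tRNA of mitochondria, read 7.46, 7.33 and 7.02 untreated and 8.11, 8.29 and 8.09 with anti-IgM (0.89 ± 0.16; adjusted p = 0.000996, limma).

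Mammalian mitochondria have no glutaminyl-tRNA synthetase of their own, and glutamine-charged tRNA is made there by an amidotransferase of the subunits encoded by Qrsl1, Gatb and Gatc. These did not move together. Qrsl1 read 10.41, 10.22 and 10.52 untreated and 9.56, 9.36 and 9.54 with anti-IgM, 1.86-fold lower (−0.90 ± 0.12; adjusted p = 9.51e-05, limma). Gatb and Gatc were higher, by 0.51 ± 0.15 (adjusted p = 0.019) and 0.32 ± 0.09 (adjusted p = 0.014). Gatb missed the threshold without untreated replicate 3 (0.074) and without anti-IgM replicate 1 (0.057) or 2 (0.079), and Gatc without anti-IgM replicate 2 (0.059). Without anti-IgM replicate 2 the number of genes of this list that rose was 1 in place of 3, and without untreated replicate 3 or anti-IgM replicate 1 it was 2. Prorsd1, a relative of enzymes that remove wrongly joined amino acids, was 1.88-fold lower (−0.91 ± 0.14).

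The genes that mature and export tRNAs were mostly higher. Of 20 tested, 14 rose and 1 fell, beside 23.2% and 23.9% of all genes, with a median of 0.81, and without both replicate 1 arrays 15 rose and 1 fell. Elac2, which cuts the 3′ end of tRNA precursors, rose 4.79-fold (2.26 ± 0.14) and Xpot, the exporter of tRNAs, 3.39-fold (1.76 ± 0.09; adjusted p = 1.4e-07, limma). Trnt1, which adds the CCA end that receives the amino acid, rose by 1.06 ± 0.09. Among subunits of RNase P and its relative RNase MRP, which cut RNA precursors, Rpp38 (1.60), Pop1 (1.41), Rpp14 (1.21), Pop7 (1.13), Rpp30 (0.79), Pop5 (0.54) and Pop4 (0.49) rose. Rpp25 exceeded the array median in 0 of 3 untreated and 3 of 3 anti-IgM samples, and rose at least 4.94-fold. It passed the filter only through the anti-IgM samples, so its place among the 14 is not independent of that filter. Xpo5 (0.83) and the splicing endonuclease genes Tsen54 (0.91) and Tsen15 (0.50) rose, and Tsen34, for another subunit of that endonuclease, fell by 0.69. Clp1 (0.42), Ssb (0.25), Rpp40 (0.16), Rpp21 (−0.17) and Elac1 (−0.25) were not called. Clp1, at an adjusted p of 0.051, was called with the replicate number as a block (0.018), without anti-IgM replicate 1 (0.016) and without both replicate 1 arrays (0.55; adjusted p = 0.0078).

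Factors listed around the delivery of charged tRNA to the ribosome changed in both directions. Of 9 tested, 4 rose and 1 fell, with a median of 0.17, a share called near the 47.1% of all genes. Several genes of this list, Eef2, Gfm1, Gfm2 and Eef1d among them, encode factors that do not bring tRNA themselves. Eef2 was the gene that fell. The mitochondrial elongation factor genes Gfm1 (1.25 ± 0.15), Tsfm (0.65 ± 0.14) and Tufm (0.47 ± 0.11) rose, as did Eef1d (0.50 ± 0.10), an exchange factor subunit. Eef2, which moves the ribosome along the messenger, read 13.85, 14.08 and 13.94 untreated and 12.68, 13.16 and 13.00 with anti-IgM, 2.02-fold lower (−1.01 ± 0.12; adjusted p = 6.03e-05, limma). Eef1g (0.17), Eef1b2 (−0.14), Gfm2 (−0.01) and Eef1a1 were not called. Eef1a1 read 15.40 in both groups, against array maxima from 15.52 to 15.74, so a change in it can be understated.

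**Figure D5:**
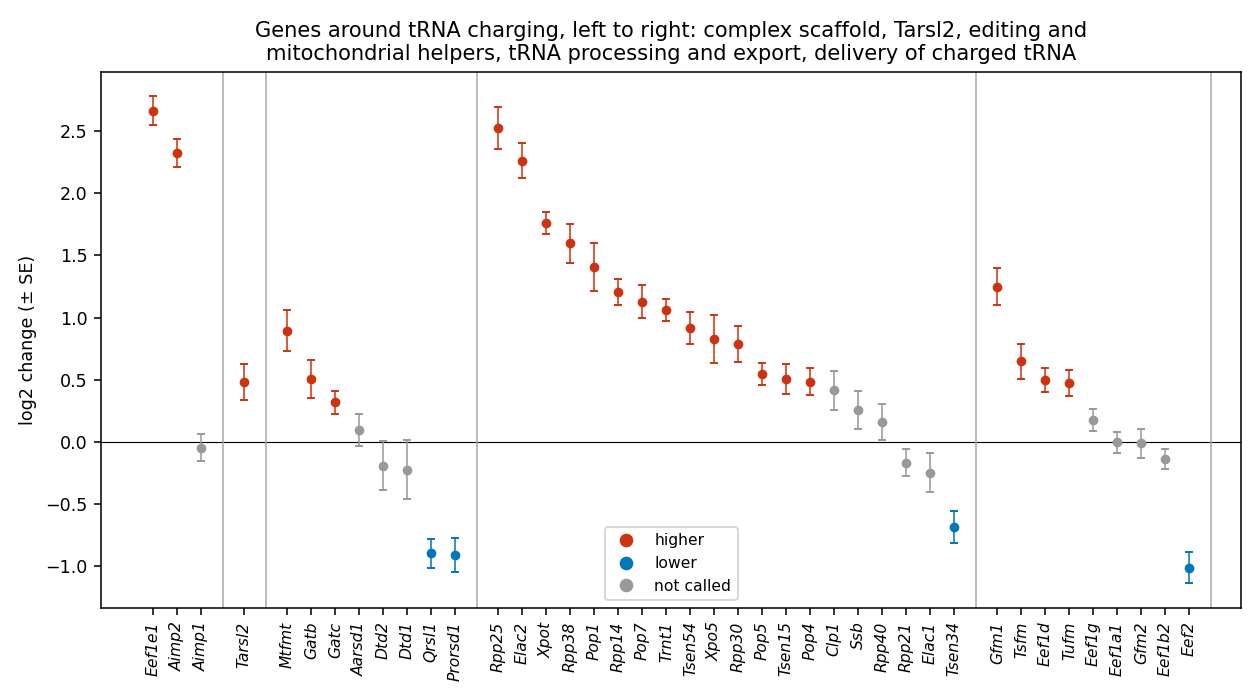
log2 change with its SE for tested genes around tRNA charging, coloured by call and grouped by list. Eef1e1 and Aimp2 at the left lie above 2 while Aimp1 lies near 0, and Eef2 at the right is the lowest, at −1.01.

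Some markers of other cell types changed in the same samples. Of 28 such genes with a probe, 24 were tested. Of these, 2 rose (Nkg7 of natural killer cells and Zbtb46 of dendritic cells), and 7 fell, so the share called was below the 47.1% of all genes. Among natural killer markers Nkg7 changed by 1.20 and Klrd1 by −0.78. The others that fell were Adgre1 and Lyz1 of macrophages and monocytes, S100a8 and S100a9 of neutrophils, and Sdc1 and Mzb1 of plasma cells. Summed marker intensity ranged from 428 to 574 in untreated and from 436 to 580 in anti-IgM samples for T cells, and from 371 to 452 and from 508 to 614 for natural killer cells. It ranged from 6679 to 19695 and from 4784 to 8447 for macrophages and monocytes, and from 701 to 1425 and from 554 to 738 for neutrophils. For dendritic cells the ranges were 316 to 525 and 496 to 691, for erythroid cells 1090 to 2187 and 808 to 2141, and for plasma cells 28389 to 37793 and 13273 to 14192. The plasma cell sum came mostly from Mzb1 and Xbp1, with mean log2 intensities of 14.62 and 12.38 in untreated samples. Sdc1 and Prdm1 read 8.19 and 6.27 there, and Prdm1 was not called. The sum therefore does not show how many plasma cells were present. Of the T cell markers, Cd3e, Cd3g and Cd3d had mean log2 intensities of 6.33, 6.40 and 6.78 in untreated samples. With anti-IgM Cd3e and Cd3g exceeded the array median in 0 of 3 samples, Cd4 and Thy1 in 2 of 3, and Cd3d, at 6.99, in 3 of 3, and none of these 5 was called. No marker intensity was 0, since background remained. The part of these cells in the synthetase results was not tested.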

How the data were processed

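Total RNA from 6 samples was hybridised to 1-colour Illumina bead arrays. The authors deposited a table of linear intensity per probe, already normalized between arrays, as its values show (array medians between 72.81 and 72.84). How they were normalized is not stated in these sources. Values are relative to the array, so a change in total RNA per cell does not show. A table of unnormalized signal with 6 columns was not used, since its column names match no label. Gene symbols came from the platform annotation (34885 of 45281 probes with 1 symbol, 18 with several, 10378 not listed).

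Intensities were taken as log2 and tested in R 4.3.3 with limma 3.58.1 (group alone, intensity trend, two-sided), on the brightest tested probe of each gene. Median SE was 0.15. Probe-level p-values were adjusted over all 23505 probes tested. Whether the replicates are separate mice or cultures is not labelled, so the p-values reflect only the spread among these samples. Xist and Eif2s3y set replicate 1 apart in both groups, so this spread is not technical alone. Between replicates 2 and 3 it may be technical. No arrays were identical (0 pairs). Replicate numbers from the labels were checked as pairs: deviations from group means correlated at 0.60, 0.27 and 0.32, so they were taken as pairs, though untreated replicate 2 with anti-IgM replicate 3 gave 0.39.

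Alternatives covered the normalization, a normexp background with an offset of 16, the filter, the probe choice, the variance trend, a replicate block, treat at 0.5 and samples left out. Values in every sample are given for the 5 largest rises and all called falls of each set and for others where a call was uncertain. Some genes outside these were singled out after their values were seen. The members, lists and motifs were chosen with earlier results of these data known. The fit was tested on simulated data. Plots used Python 3.11.15 and matplotlib 3.10.9.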

Additional observations from a re-analysis of the deposited data

How the results depend on the processing

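Of 33 members tested, 22 kept direction and side of the threshold under every alternative that tested them, other than treat at 0.5, and 16 with it included. Quantile normalization, normexp and dropping the intensity trend changed no member's call. With the replicate block 27 members were called in place of 24, and 6397 genes in place of 5581; Farsa, Sars2 and Vars2 were the added members, and no member's call was lost. With treat at 0.5 in place of 0, 14 members and 2777 genes passed, since that test asks for a larger change. Of these members 12 were cytosolic and higher, 1 cytosolic and lower, 1 mitochondrial and higher and 0 mitochondrial and lower. Sars, Rars2, Aars2, Ears2, Lars2 and Fars2, called under every other alternative that tested them, did not pass treat. Aars2 was not tested where probes had to exceed the median on all arrays. The mitochondrial median was 0.071 with no filter and 0.059 when only probes above the median on all arrays were kept, which changes the genes that enter it, and 0.34 with the brightest RefSeq-transcript probe, an alternative chosen after seeing the data. With the mean of all tested probes, 1 mitochondrial gene was lower in place of 2, and Iars2, Pars2 and Wars2, none of them called, turned to 0.10, 0.016 and 0.086. Wars2 also turned to 0.36 with its brighter RefSeq-transcript probe. Leaving out 1 sample at a time gave 4962 to 5517 genes called, 21 to 23 members, 13 to 15 cytosolic genes higher and 1 to 2 lower, and 5 to 6 mitochondrial genes higher and 1 to 2 lower. Cytosolic medians were then 1.14 to 1.23 and mitochondrial ones 0.13 to 0.30. Uncalled genes that turned sign then were Wars2 (−0.50 to 0.29), Pars2 (−0.083 to 0.047) and Tars2 (−0.041 to 0.20). Without both replicate 1 arrays 21 members were called, 13 cytosolic ones higher (10 at least 2-fold) and 1 mitochondrial one lower. Other causes of these shifts were not tested. Signal near the array median limits Yars, Aars2, Hars, Hars2 and Yars2.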
